A study of Homo sapiens with 6 samples.

Results

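The genes described here are CXCL8 and 9 other inflammatory genes that the transcription factor NF-kB is known to switch on, namely CXCL1, CXCL2, CXCL3, CCL20, TNFAIP3, NFKBIA, PTGS2, UBD and ICAM1. Every probe set whose platform annotation names 1 of these 10 genes was taken, which gave 18 of the 54675 probe sets on the array. The annotation gave 17 of them to a single gene, and 1 probe set to both UBD and GABBR1. Over the whole array 19775 genes had a probe set of their own. RNA came from tumours of the established human cell line HT-29, a colorectal adenocarcinoma line, which had been injected on both sides in the femoral region of Balb/c (nu/nu) mice 6 to 8 weeks old. There were 3 groups. The treated tumours had been heated for 30 min by modulated electro-hyperthermia, an electromagnetic heat treatment, 18 days after injection, and were sampled 4 h later. The opposite-side tumours were the untreated tumours on the other side of the heated animals, sampled at the same time. The control tumours were labelled only as control xenografts, and no heating or sham procedure is named for them. The RNA of a group had been pooled and run on 2 arrays as technical replicates, and the number of animals in a pool is not given in the labels. With 1 pool a group no test between conditions could be made, and the SDs given are those of the 2 arrays of a pool. Such mice lack mature T cells but keep other host cells, and the array carries probes for human transcripts, so signal from mouse cells in the dissected tissue was not measured as such.

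NF-kB dimers are held in the cytosol by inhibitor proteins of the IkB family until the IKK kinase complex marks the inhibitor for destruction, after which the dimers enter the nucleus and bind DNA. Among their targets are chemokines, adhesion molecules, the prostaglandin-forming enzyme COX-2 and the inhibitors that end the signal. In colorectal tumours some of these targets are known for drawing in neutrophils or for promoting blood vessel growth. CXCL8 (interleukin-8) and CXCL1, CXCL2 and CXCL3 are chemokines that attract neutrophils, and CCL20 attracts lymphocytes and dendritic cells. NFKBIA encodes IkB-alpha, TNFAIP3 the ubiquitin-editing enzyme A20, PTGS2 COX-2, UBD the ubiquitin-like protein FAT10 and ICAM1 an adhesion molecule that binds leukocyte integrins.

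Values are on the log2 scale, and a probe set or gene was called detected in a comparison where either pool mean was at or above 5. A size rule stood in for a test: the difference of the pool means had to reach 1 (2-fold) with the same sign in all 4 pairs of arrays, and neither array of the higher pool could lie below 5. The words rose and fell are used only for differences past this size rule. A fold with its lower pool under 5 was computed against 5, which makes it a lower bound, and a log2 difference from such a pool is that of the deposited values and no measure of the size of the change. The size rule reads the deposited difference. Over all detected probe sets the arrays of a pool differed by a median of 0.050 to 0.059 and arrays of different pools by 0.141 to 0.168. Of 10 colon epithelial markers 9 were detected in every pool, and CDX2, an intestinal transcription factor, was below 3 in every pool. Having 1 pool a group limits the precision, and the spread of its 2 technical arrays does not measure the spread between animals.

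Of the 18 member probe sets, 7 reached 5 in at least 1 pool, and these belonged to 7 genes, counting the shared UBD and GABBR1 probe set for UBD. The other 11 stayed below 5 in every pool, with pool means of 2.37 to 4.54. All probe sets of CXCL3, CCL20 and ICAM1 were among these 11.

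The DNA just before the start of the members was searched for motifs, to show which of them carry letters that NF-kB is known to bind. The windows were the 300 bases from 250 before to 50 after each gene's start, as given by RefSeq on GRCh38.p14, and all 10 members had one. Motifs were searched on both strands, and overlapping matches of a motif were merged. The NF-kB consensus matched in 7 of the 10 windows, against 5.91% of 35116 windows of all genes. With its first base free, which contains the strict form, it matched in 9 of 10, against 15.9% of all windows. The window without a match was that of PTGS2, which says only that these letters are not in it. The AP-1 motif TGANTCA was found in the CXCL8 window alone among the members (7.71% of all windows). The heat shock element, spelled GAA, any 2 bases, TTC, any 2 bases and GAA, was in 0 of 10 (0.49% of all windows). The TATA box TATAAA was in the windows of CXCL8, CCL20, NFKBIA, PTGS2 and ICAM1 (11.5% of all windows). In NFKBIA it lay on the strand opposite to the gene, read along the gene as TTTATA. In the CXCL8 window the AP-1 match ran from -137 to -131 and the NF-kB match from -92 to -82, without overlap. In the member windows no AP-1 or TATA box match overlapped an NF-kB match. These matches describe letters and are not evidence of binding. The members were chosen as known NF-kB targets, so a high share of NF-kB matches follows from that choice and nothing is read from it. The 150 bases before the start are shown for 6 members on which the results below turn: 3 chemokines, both inhibitors and UBD. Capitals mark matches to the NF-kB consensus with its first base free, and bases run from -150 to -1.
CXCL8, chr4:73740419-73740568, + strand: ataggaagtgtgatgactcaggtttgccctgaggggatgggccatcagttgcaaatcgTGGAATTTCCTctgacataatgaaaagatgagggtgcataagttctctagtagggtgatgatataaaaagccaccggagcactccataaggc
CXCL1, chr4:73869243-73869392, + strand: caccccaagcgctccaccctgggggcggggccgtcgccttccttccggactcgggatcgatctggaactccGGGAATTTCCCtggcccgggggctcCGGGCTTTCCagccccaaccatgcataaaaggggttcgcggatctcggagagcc
CXCL2, chr4:74099196-74099345, - strand: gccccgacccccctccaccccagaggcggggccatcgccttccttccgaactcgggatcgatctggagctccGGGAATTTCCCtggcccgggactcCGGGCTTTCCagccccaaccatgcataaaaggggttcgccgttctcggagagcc
TNFAIP3, chr6:137867109-137867258, + strand: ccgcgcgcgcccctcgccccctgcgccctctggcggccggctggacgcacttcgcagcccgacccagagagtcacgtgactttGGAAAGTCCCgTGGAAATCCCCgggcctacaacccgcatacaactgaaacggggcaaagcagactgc
NFKBIA, chr14:35404750-35404899, - strand: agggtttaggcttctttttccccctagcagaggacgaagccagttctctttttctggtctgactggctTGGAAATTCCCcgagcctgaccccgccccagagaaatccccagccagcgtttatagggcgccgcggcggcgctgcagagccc
UBD, chr6:29559733-29559882, - strand: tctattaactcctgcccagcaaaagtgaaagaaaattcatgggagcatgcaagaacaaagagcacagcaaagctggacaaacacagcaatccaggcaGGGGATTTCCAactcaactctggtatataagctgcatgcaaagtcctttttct

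CXCL1 and CXCL2 carried the same 11 letters, GGGAATTTCCC, at nearly the same distance (-79 to -69 and -78 to -68), and a further match from -54 to -45 in each. Compared without gaps at the best single shift, of 1 base, 67.1% of 149 bases were identical between their printed stretches. This shift aligns the first match of the 2 genes and not the further one, so the share misses any likeness that needs a gap. Identity with gaps was not measured. The CXCL3 window held both of these matches as well.

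**Figure D1:**
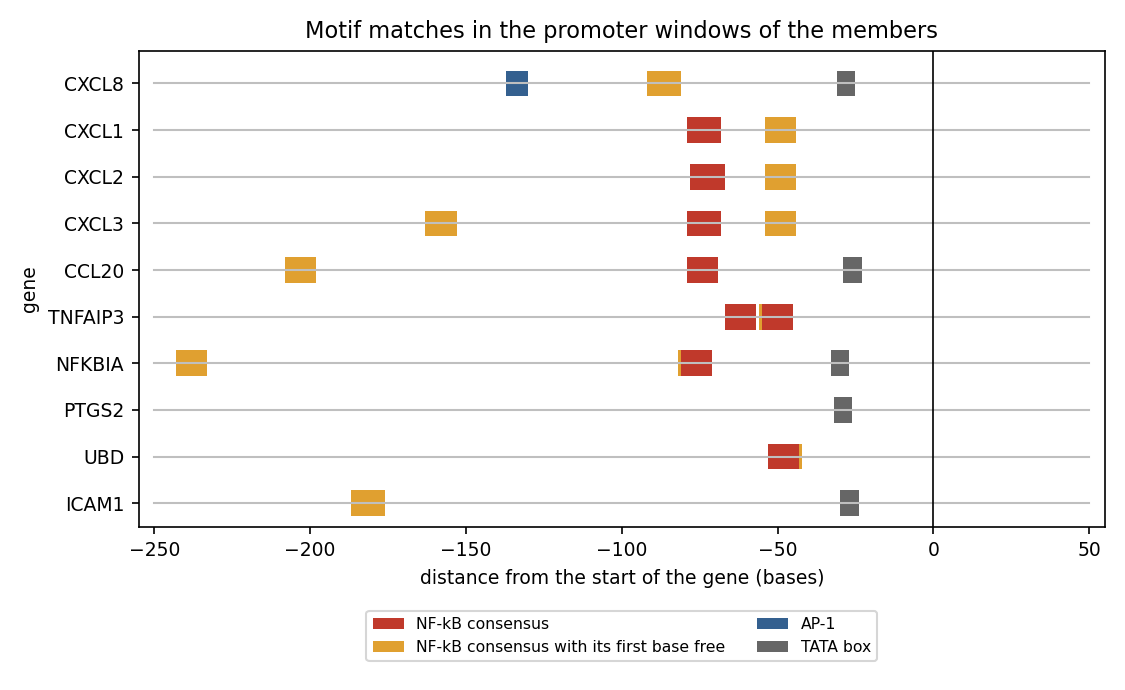
Motif matches in the promoter windows of the 10 members, against the distance in bases from the start of each gene (vertical line). Bars span the matched bases and are coloured by motif. PTGS2 has a TATA box match and no NF-kB match, and CXCL8 is the member with an AP-1 match.

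The treated pool was set against the control pool to see which of these genes differed 4 h after heating. Expression of CXCL8 and of the probe set shared by UBD and GABBR1 rose, by at least 2.44-fold and at least 3.75-fold. TNFAIP3, CXCL1 and PTGS2 were higher by 0.98, 0.91 and 0.82 (log2), short of the size rule, while CXCL2 differed by 0.23 and NFKBIA by -0.20. Thus 2 of the 7 detected member probe sets were past the rule upward, against 0.775% of 12782 detected probe sets, and 0 downward (0.235%). All 4 array pairs were higher in the treated pool for 6 of the 7 (33.8% of detected probe sets) and lower for the remaining 1 (41.1%). CXCL8, CXCL1 and the UBD and GABBR1 probe set were below 5 in the control pool and so entered the comparison only through the pool in which they were high. For this reason nothing is read from the member shares of this comparison. In pooled tissue, more cells that express a gene and more RNA per cell cannot be told apart.

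CXCL8 probe set 202859_x_at read 6.33 and 6.24 on the treated arrays, 4.94 and 4.94 on the opposite-side arrays and 4.25 and 4.00 on the control arrays. The 3 pools did not overlap, and the treated arrays alone were above 5. The deposited values of treated and control differed by 2.16, but with the control pool below 5 the size of the change is known only as the bound of at least 2.44-fold. The other CXCL8 probe set, 211506_s_at, lay at 2.47 in the treated pool, 2.51 in the opposite-side pool and 2.44 in the control pool, and showed no such difference. The ending _x_at marks a probe set with probes that can also match other transcripts, and whether they did so was not tested.

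Of the close relatives of CXCL8, CXCL1 (204470_at) read 5.07 and 5.31 on the treated arrays, 4.39 and 4.39 on the opposite-side arrays and 4.31 and 4.24 on the control arrays. The treated arrays stood apart and the opposite-side and control arrays were close to each other. The difference of 0.91 passed the size rule without treated replicate 1, at 1.03, and measured against 5 it was at least 1.14-fold. CXCL2 (209774_x_at) read 5.58 and 5.39 in the treated pool, 5.30 and 5.32 in the opposite-side pool and 5.21 and 5.30 in the control pool, and its treated arrays were the highest by a margin below their own difference. The other CXCL2 probe sets were near the lowest value of the table, 1569203_at at 2.47 in all pools and 230101_at at 2.37 on all 6 arrays. CXCL3 (207850_at) was not detected, at 4.54 ± 0.040 in the treated pool, 4.23 ± 0 in the opposite-side pool and 4.23 ± 0.040 in the control pool. Its opposite-side arrays gave equal values below 5, as did those of CXCL8 and CXCL1, so an SD of 0 is no measure of precision. CCL20 (205476_at) was not detected either, at 3.60 ± 0.047, 3.31 ± 0.011 and 3.34 ± 0.011 in the treated, opposite-side and control pools. Both CXCL3 and CCL20 were highest on the treated arrays.

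The inhibitors differed from one another. TNFAIP3 (202644_s_at) read 6.25 and 6.22 on the treated arrays, 5.94 and 5.91 on the opposite-side arrays and 5.27 and 5.25 on the control arrays. All 3 pools were separate, with the treated pool 1.97-fold above control. That difference, 0.98, passed the size rule at 1.00 when the arrays were quantile normalized again. The other TNFAIP3 probe set, 202643_s_at, stayed below 5 with the same order of pools, at 4.22 ± 0.33 treated, 3.82 ± 0.037 opposite-side and 3.48 ± 0.15 control. NFKBIA (201502_s_at) read 7.85 and 7.79 on the treated arrays, 7.95 and 7.95 on the opposite-side arrays and 7.93 and 8.11 on the control arrays. It was the only detected member that was lowest in the treated pool, by 0.20 against control, and the opposite-side and control arrays overlapped. The other NFKBIA probe set, 231699_at, had pool means of 2.39 treated, 2.40 opposite-side and 2.38 control.

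PTGS2 (204748_at) read 5.79 and 6.07 on the treated arrays, 5.19 and 5.35 on the opposite-side arrays and 5.35 and 4.88 on the control arrays. The treated arrays were above the other 4, and the opposite-side and control arrays overlapped. The control arrays were the least alike of any detected member pool, with an SD of 0.33, and without control replicate 1 the treated minus control difference passed the rule at 1.05, whereas without control replicate 2 it was 0.58. The second PTGS2 probe set, 1554997_a_at, was below 5, at 3.12 ± 0.20, 2.72 ± 0.052 and 2.72 ± 0.050 in the treated, opposite-side and control pools.

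The probe set shared by UBD and GABBR1, 205890_s_at, read 6.87 and 6.95 on the treated arrays, 6.32 and 6.15 on the opposite-side arrays and 4.52 and 4.19 on the control arrays. It was high in both tumours of the heated animals and below 5 in control, so that the size of the change from control is known only as the bound of at least 3.75-fold, while the deposited values differed by 2.55. The 2 probe sets that name GABBR1 alone, a subunit of the GABA-B receptor, were below 5 on every array. Of these, 203146_s_at averaged 3.44 ± 0.034 in the treated, 3.38 ± 0.11 in the opposite-side and 3.26 ± 0.19 in the control pool, and 238569_at read 2.52 and 2.62 on the treated, against 2.40 and 2.40 on the control arrays. Neither showed the difference seen in the shared probe set. No probe set named UBD alone, so its level was not separated from that of GABBR1 by a probe set of its own.

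The 3 ICAM1 probe sets showed no detected expression in any pool. Their means were 2.50, 2.66 and 3.21 in the treated pool, 2.69, 2.74 and 3.35 in the opposite-side pool and 2.49, 2.61 and 3.20 in the control pool. Those of the opposite-side pool were the highest for each probe set, by 0.08 to 0.19 over the treated pool.

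**Figure D2:**
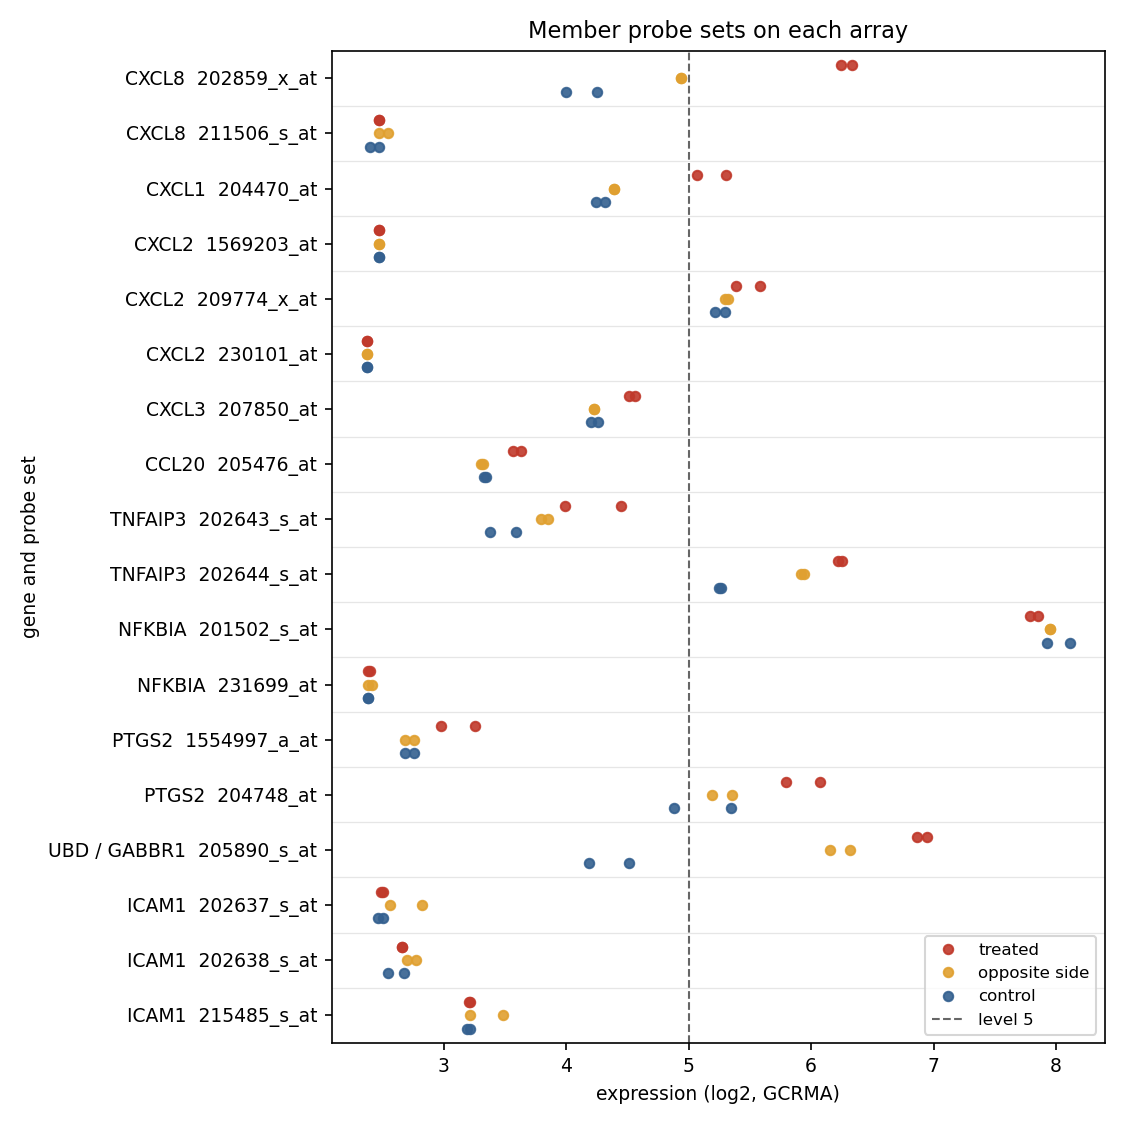
Expression (log2) of the 18 member probe sets on each of the 6 arrays, 2 for each pool. The dashed line marks the level of 5 from which probe sets were called detected, and 11 of the 18 rows lie wholly below it. CXCL8 and UBD / GABBR1 have treated arrays above 6 and control arrays below 5.

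The treated pool was then set against the opposite-side pool, to see whether these genes differed between the heated and the unheated tumours of the same animals. Of the members only CXCL8 rose, by at least 2.44-fold, with deposited values 1.35 apart and the opposite-side pool below 5. CXCL1 was higher by 0.79, UBD and GABBR1 by 0.67 (1.59-fold) and PTGS2 by 0.66 (1.58-fold), all short of the rule. TNFAIP3 differed by 0.31 and NFKBIA by -0.13. CXCL2 differed by 0.18, which turned to -0.01 with the arrays set to the same median of their spike-in controls. That makes 1 of 7 detected member probe sets higher, against 0.348% of 12655, and 0 lower (0.103%), while all 4 array pairs were higher for 6 of 7 (36.6%) and lower for 1 (34.7%). CXCL8 and CXCL1 were below 5 in the opposite-side pool and detected only through the treated pool, in which they were high, so nothing is read from that share. The spike-in setting moved the median of all detected probe sets by -0.19 in this comparison, so that CXCL8 was then at 1.16, CXCL1 at 0.60, UBD and GABBR1 at 0.48, PTGS2 at 0.47, TNFAIP3 at 0.12 and NFKBIA at -0.32.

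The opposite-side pool was last set against the control pool, to see which members differed in unheated tumours of heated animals. The shared UBD and GABBR1 probe set rose, by at least 2.35-fold, with deposited values 1.88 apart and the control pool below 5. It was the only member past the rule, 1 of 5 detected, where 0.322% of 12740 detected probe sets were higher, with 0 lower (0.267%). It was detected in this comparison only through the opposite-side pool, in which it was high, so nothing is read from that share. TNFAIP3 was higher by 0.67 (1.59-fold), short of the rule, at 5.93 ± 0.019 opposite-side and 5.26 ± 0.013 control. For these 2 of the 5 all 4 array pairs were higher (34.1% of detected probe sets), for 0 all were lower (41.3%), and for the other 3 the arrays of the pools overlapped. PTGS2 differed by 0.16, CXCL2 by 0.05 and NFKBIA by -0.07. PTGS2 changed sign without control replicate 2 (-0.08), and NFKBIA without it (0.02) and with the spike-in setting (0.11). CXCL8 was below 5 in both pools, at 4.94 ± 0 opposite-side and 4.13 ± 0.18 control, and is not counted here. CXCL1 was likewise below 5 in both.

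The members differed in which neighbouring pools were farther apart. For TNFAIP3, detected in every pool, the opposite-side and control pools were farther apart (0.67, 1.59-fold) than the treated and opposite-side pools (0.31, 1.24-fold). The shared UBD and GABBR1 probe set had the same order, at least 2.35-fold between opposite side and control and 1.59-fold between treated and opposite side. PTGS2, detected in every pool, had the reverse order, with 0.66 (1.58-fold) between treated and opposite side and 0.16 (1.11-fold) between opposite side and control. CXCL8 and CXCL1 were below 5 in both the opposite-side and the control pool, so their difference between these pools has no known size and they are placed in neither order. The larger of the 2 differences stayed the same for TNFAIP3, PTGS2 and the UBD and GABBR1 probe set under each of 10 alternatives of scaling, averaging or leaving out an array. It changed for CXCL2 with the spike-in setting, and for NFKBIA without control replicate 1. The 2 differences share the opposite-side pool, so a high value of that pool raises one and lowers the other.

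**Figure D3:**
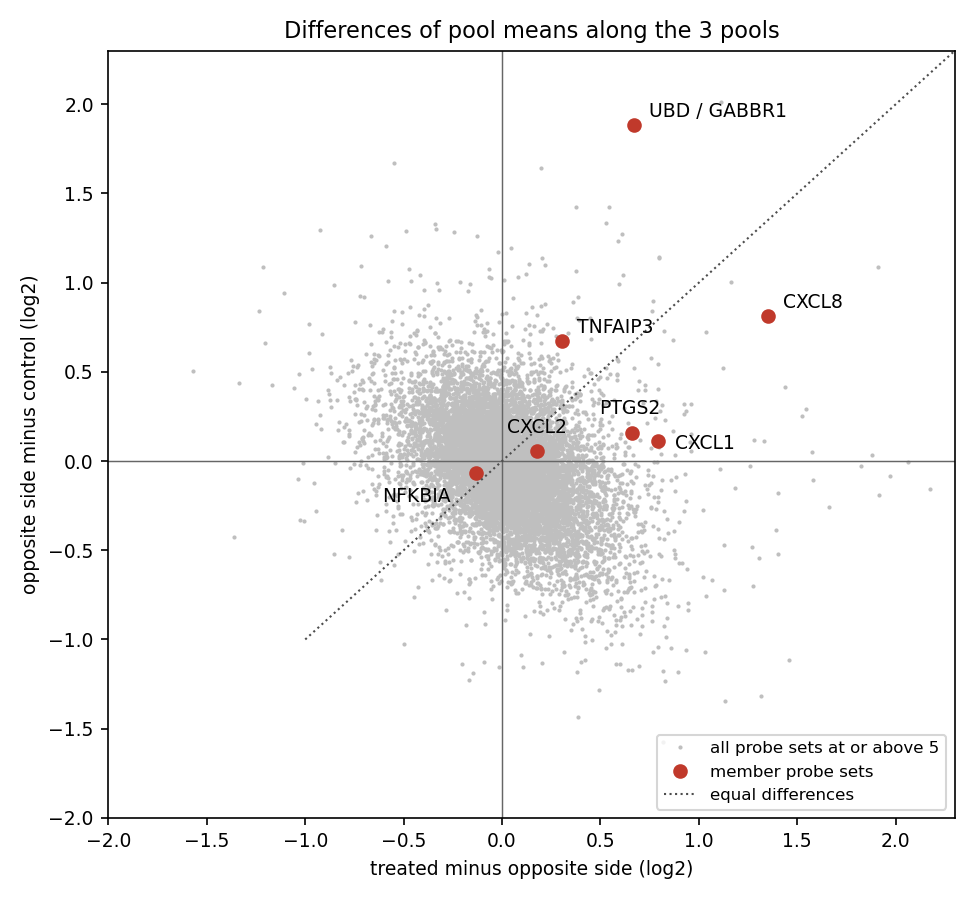
Treated minus opposite-side difference (x axis, log2) against opposite-side minus control difference (y axis, log2) of the pool means, for the 7 member probe sets that reached 5 in any pool and for 12939 probe sets in all, of which 6 lie outside the axes. UBD / GABBR1 and TNFAIP3 lie above the dotted line of equal differences and PTGS2 below it. Both axes share the opposite-side pool, and the heights of CXCL8 and CXCL1 are differences between pools that were both below 5.

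The rest of the pathway was described through 11 lists of 156 genes, of which 145 had a probe set of their own. In treated minus control 68 of these were detected, 2 rose and 0 fell, against 0.625% and 0.0972% of 7204 detected genes. In treated minus opposite side 0 of 68 rose or fell (0.28% and 0.0559% of 7155), and in opposite side minus control 0 of 65 did (0.237% and 0.167% of 7182). All 4 array pairs were higher for 39 and lower for 11 of the genes detected in treated minus control, against 34.7% and 40.5% of all detected genes. In treated minus opposite side the counts were 34 and 17 (38.6% and 33.2%), and in opposite side minus control 32 and 19 (34.0% and 42.4%). PIGR, LIF, IL18 and JUNB were below 5 in the control pool and were detected in treated minus control only through the treated pool. The lists were also chosen with earlier results of these data known, so nothing is read from these counts.

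Both genes past the rule were of the list of other NF-kB targets, in which 10 of 31 measured genes were detected with a median difference of 0.26, against -0.02 over all detected genes. PIGR and LIF of this list were below 5 in the control pool and detected only through the treated pool, so nothing is read from this median. TNFAIP8, a TNF-induced protein linked to cell survival, read 8.59 and 8.64 on the treated arrays, 8.21 and 8.23 on the opposite-side arrays and 7.47 and 7.39 on the control arrays, a difference of 1.18 between treated and control. Its 3 pools were separate, and a second TNFAIP8 probe set (208296_x_at) differed by 0.84, while the third lay below 5. PIGR, the receptor that carries IgA across epithelia, read 5.30 and 5.24 on the treated arrays, 4.56 and 4.43 on the opposite-side arrays and 4.08 and 4.43 on the control arrays. Its opposite-side and control pools lay below 5, so the fold is known only to be at least 1.21. The deposited difference of 1.02 dropped below the rule without treated replicate 1 (0.99) and without control replicate 1 (0.85), and its other probe set was at 2.37 in all pools. Of the same list IER3, an immediate early stress gene, stood at 8.08 ± 0.052 in the treated pool, 7.26 ± 0.062 in the opposite-side pool and 7.37 ± 0.016 in the control pool, so that it differed by 0.81 between the heated and unheated sides. SDC4, a cell surface proteoglycan, differed by 0.49 between treated and control. TNF, IL1A, IL1B, IL6, CXCL5, CXCL10 and CCL2 were not detected.

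In the lists of subunits, inhibitors and kinases 0 genes were past the rule in any comparison. Of 5 NF-kB subunits 3 were detected. NFKB1 (p105 and p50) differed by 0.18 between treated and control, RELA (p65) by -0.13 and REL by -0.13. Of 13 measured inhibitors and feedback genes 7 were detected, with a median of 0.14 in treated minus control and 0.28 in opposite side minus control. ITCH, a ubiquitin ligase, differed by 0.57 and 0.45 in these comparisons, RNF11 by 0.36 and 0.22, NFKBIZ, a nuclear IkB protein, by 0.24 and 0.39, and TNIP1, a partner of A20, by 0.14 and 0.28. Of 12 IKK subunits and upstream kinases 7 were detected, with a median of 0.30 in treated minus control and 0.01 in treated minus opposite side. MAP3K7 (TAK1) differed by 0.50, TAB2, its binding partner, by 0.41, TBK1 by 0.33 and RIPK2 by 0.30 between treated and control.

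Of the 21 measured receptors and adaptors 9 were detected, and the median of treated minus control was 0.05. MYD88, the adaptor of Toll-like and interleukin-1 receptors, differed by 0.49, BIRC2 by 0.29, TRAF3 by 0.27 and TRAF5 by -0.32. Of 12 cytokines 3 were detected. TNFSF15 differed by 0.54 in treated minus control and 0.55 in opposite side minus control, IL18 by 0.51 and 0.29, and TNFSF10 (TRAIL) by -0.14 and 0.43. The control pool of IL18 was below 5, so its folds are known only to be at least 1.235 and 1.056. In the list of receptors and integrins no gene was detected, since none of the 12 measured genes had a pool mean above 3. Besides chemokine receptors and the integrins that bind ICAM1, this list held the prostaglandin E receptors PTGER1 to PTGER4. CXCR1 and CXCR2, which bind CXCL8, had means of 2.53 and 2.37 in the treated pool and 2.52 and 2.37 in the control pool.

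Among the transcription factors known to act with NF-kB at the CXCL8 promoter, 8 of 10 AP-1 and C/EBP genes were detected in treated minus control, with a median of 0.10, and 8 in treated minus opposite side, with a median of 0.29. JUNB differed by 0.66 and 0.74 in these comparisons, FOSL2 by 0.60 and 0.49, JUN by 0.14 and 0.28, and FOS by 0.13 and 0.77. JUNB was below 5 in the control and opposite-side pools, so its fold is known only to be at least 1.56 in each. FOS was lowest in the opposite-side pool, at 5.59 and 6.01, against 6.61 and 6.54 in the treated pool and 6.52 and 6.38 in the control pool. Of 10 detected regulators of AU-rich mRNA, the kind of transcript that CXCL8 and PTGS2 produce, the median of treated minus control was 0.03. ZFP36L1 differed by 0.42, RC3H1 by 0.37, ZFP36 (tristetraprolin), which promotes decay of such mRNAs, by -0.33, and TIAL1 by -0.19. Of 12 prostaglandin genes 5 were detected, with HPGD, which breaks prostaglandins down, at 0.41, the prostaglandin E synthase PTGES3 at 0.38, PTGES2 at 0.12 and ABCC4 at 0.03 in treated minus control. The list of ubiquitin-like proteins and their partners also held GABBR1, only because it shares the UBD probe set. Of the 7 measured genes in this list 6 were detected, with ISG15 at -0.40, UBB at 0.38, NEDD8 at -0.24 and UBE2Z, which loads FAT10, at -0.13.

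**Figure D4:**
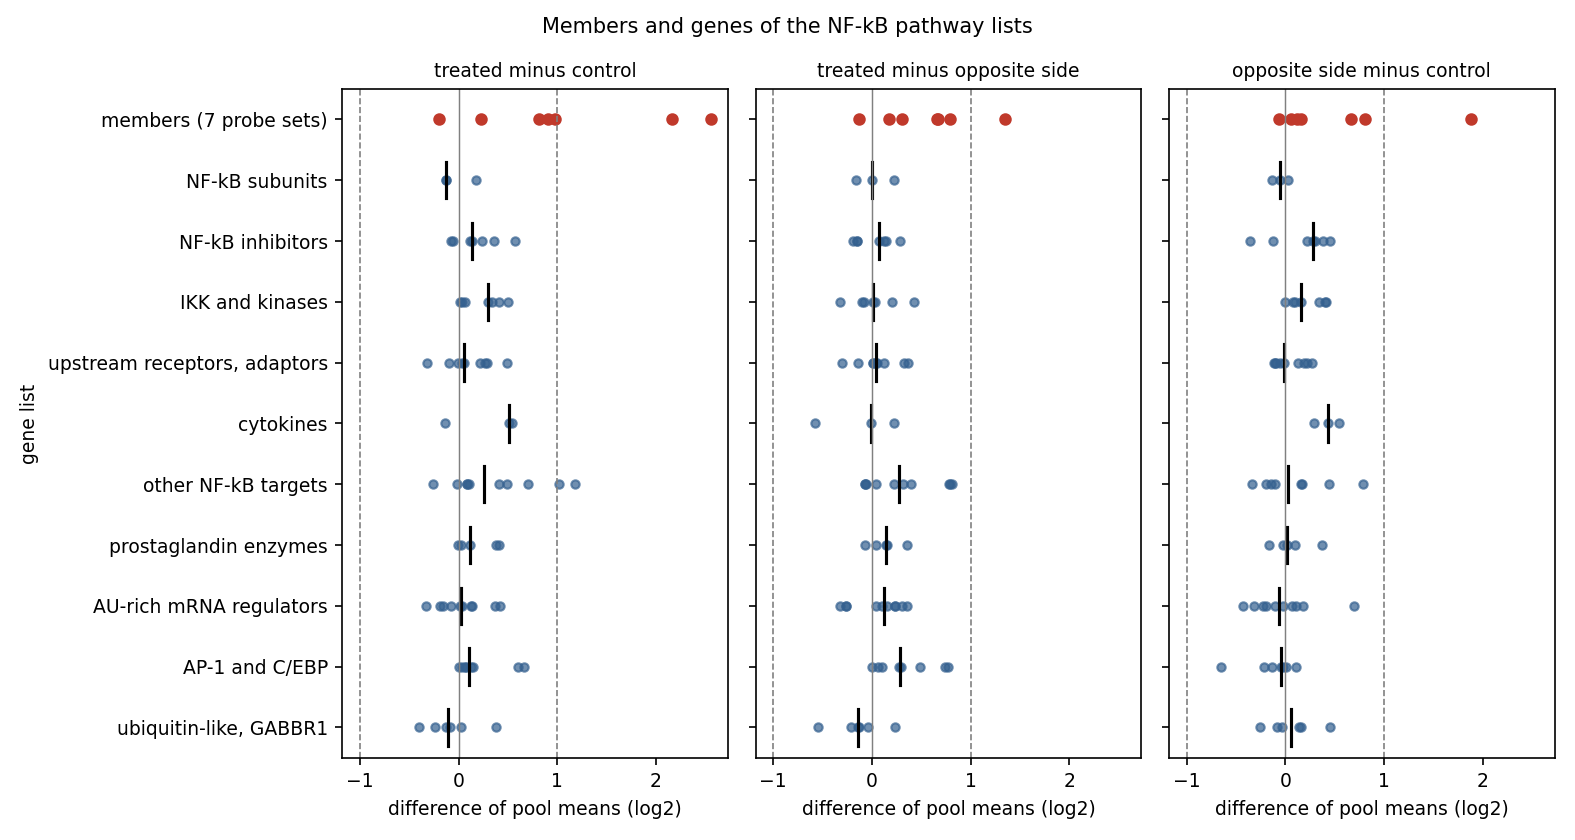
Differences of pool means (log2) for the 7 member probe sets that reached 5 in any pool (red) and for the detected genes of 10 pathway lists (blue), in the 3 comparisons. Black bars are list medians, dashed lines mark -1 and 1, and the list of receptors and integrins is left out because 0 of its genes were detected. In treated minus control 2 members and 2 other NF-kB targets lie beyond 1.

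Markers of other cell types were read beside these results. Of 9 measured leukocyte markers 8 had pool means below 3 in every pool, among them PTPRC, CD14, ITGAM, S100A8 and MPO, and LYZ was the 1 detected. The summed linear signal of the leukocyte list was 3648 to 3697 on the treated, 3429 to 3520 on the opposite-side and 3082 to 3191 on the control arrays. Nearly all of it was LYZ, with pool means of 11.82 treated, 11.74 opposite-side and 11.59 control (log2), so the sum follows this 1 gene. Of 8 endothelial markers 7 were below 3 in the treated and opposite-side pools and 6 in the control pool, PECAM1, VWF and CDH5 among them, and the sums were 74 in the treated pool, 71 in the opposite-side pool and 75 to 78 in the control pool. The fibroblast and matrix list had 4 of 10 genes detected in each pool and summed to 803 to 816 on the treated, 678 to 693 on the opposite-side and 369 to 406 on the control arrays, with DCN, LUM, PDGFRB and THY1 below 3. VIM and TAGLN rose in treated minus control (1.14 and 1.66) and in opposite side minus control (1.26 and 1.04). The skeletal muscle list summed to 321 to 332, 271 and 260 to 267 on the treated, opposite-side and control arrays, with 4, 3 and 3 of 10 genes detected and MYH1, MYH2, CKM and MYL1 below 3. MYL11, a myosin light chain, rose 3.04-fold in treated minus control. In the same comparison TNNT1 went the other way, by -0.45, short of the rule, and TNNT3 differed by 0.06. ACTA1 rose in treated minus control and in treated minus opposite side, by at least 1.21-fold in each, with the opposite-side and control pools below 5. HBE1, embryonic globin, was the 1 detected of 3 measured red blood cell markers and rose in all 3 comparisons, by 5.18 (36.4-fold) in treated minus control, 4.16 (17.9-fold) in treated minus opposite side and 1.03 (2.04-fold) in opposite side minus control. That list summed to 2382 to 2423, 144 to 149 and 73 to 84 on the treated, opposite-side and control arrays, with HBB and ALAS2 below 3. The part of the leukocyte, fibroblast, muscle and red blood cell markers in the member differences was not tested. Of the array's quality controls for ACTB, the 5′ one was higher by 1.12 in treated minus control and 1.28 in opposite side minus control, and the 3′ one by 0.23 and 0.15. For GAPDH the 5′ control differed by -0.46 in treated minus control, -0.45 in treated minus opposite side and -0.01 in opposite side minus control, and the 3′ one by -0.03, -0.03 and 0.00. The part of these controls in the member differences was not tested either.

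By distance in the pair of differences against control, over 3 pools, the 5 genes nearest to CXCL8 of 7266 detected genes were ACTA1, BAG3, CPEB4, THBS1 and TAGLN. ACTA1, the skeletal muscle actin, lay at a distance of 0.19, with deposited differences of 2.17 in treated minus control and 1.00 in opposite side minus control. Both ACTA1 and CXCL8 were below 5 in the opposite-side and control pools, so this likeness is largely one of values below detection. BAG3, a co-chaperone of HSP70, followed at 0.50 (1.86 and 0.42), then CPEB4, an mRNA-binding protein, at 0.50 (1.67 and 0.90), THBS1, an extracellular matrix protein, at 0.54 (1.82 and 1.23) and TAGLN, a smooth muscle and fibroblast actin-binding protein, at 0.55 (1.66 and 1.04). The control means of CPEB4 and THBS1 were also below 5. With 3 pools such a likeness rests on 2 values for each gene. Both values of CXCL8 are differences from a control pool below 5. All 5 distances are therefore those of deposited values and no measure of likeness in the size of the change.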

How the data were processed

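Expression was measured on 6 one-colour human arrays, 2 technical arrays for each of 3 RNA pools. The authors deposited 1 log2 value per probe set and array, and GCRMA is named in the submitters' processing notes, with no version. GCRMA in its usual form corrects background, applies quantile normalization and summarises probes. The log2 scale was read from the values, which start at 2.37, the value of 27.8% to 28.5% of the probe sets of an array. Whether arrays were centred is not given in the sources used here.

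Probe sets were named through the platform annotation and current symbols by Entrez identifier: 41097 named 1 gene (41043 matched), 1801 several and 11777 none. Pathway and marker genes were represented by their 1-gene probe set with the highest mean. Pool means were compared by the size rule given above, with no test between conditions. The calculation of the rule was checked on simulated data with noise between arrays only. That check held no spread between animals, so it does not measure the errors of the rule in these data. Alternatives were detection levels of 4 and 6, minimum differences of 0.5 and 1.5, no required agreement of arrays, linear averaging, 3 other scalings, 2 choices of probe set and leaving out each array. The members and lists were chosen with earlier results of these data known. Named genes were all members, list genes past the rule, up to 4 largest treated minus control differences per list, and the 5 genes nearest to CXCL8. Of other NF-kB targets and of markers, some undetected genes, and CXCR1 and CXCR2, were named after their values were seen. Promoter windows are those of RefSeq on GRCh38.p14. The work used Python 3.11.15 with numpy 2.4.6, pandas 2.3.3 and, for plots, matplotlib 3.10.9.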

Additional observations from a re-analysis of the deposited data

How the results depend on the processing

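No paired analysis was possible because each group is 1 pool and the shared replicate numbers name technical arrays, so no result comes from a test. With a minimum difference of 0.5, the member probe sets past the rule numbered 5 in treated minus control, 4 in treated minus opposite side and 2 in opposite side minus control, and the pathway genes numbered 9, 7 and 4. With 1.5, there were 0 members in treated minus opposite side and 0 pathway genes in treated minus control. Without probe sets ending in _x_at or _s_at, 0 members were past the rule in each of the 3 comparisons, since this removes every detected probe set of CXCL8, UBD and TNFAIP3. Without the probe set that names several genes, 1 was left in treated minus control and 0 in opposite side minus control. A detection level of 4 gave 4 pathway genes in treated minus control and 1 in treated minus opposite side, and a level of 6 gave 1 in treated minus control. Leaving out each array in turn gave 2 to 3 members and 1 to 2 pathway genes in treated minus control, and did not move the member counts of 1 in the other comparisons. Of 210 member differences under alternatives 4 changed sign, all of differences short of the rule and given in the text above. Low signal limits the 11 member probe sets below 5, for which no fold is given.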
